A study of Mus musculus with 6 samples.

Results

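The genes described here carry fatty acids into the mitochondrion, shorten them by beta-oxidation and, in 1 case, interconvert ketone bodies. They were chosen by name, as 31 genes of mitochondrial fatty acid oxidation and ketogenesis out of 55039 in the deposited tables, and were ordered by pathway step. Of these, 30 passed edgeR's filter on low counts and were tested; Cpt1b did not pass. The tissue was eWAT (epididymal white adipose tissue), a visceral fat depot, from young male C57BL/6 mice. In the CAC group, LLC (Lewis lung carcinoma) cells were injected under the skin of 3 mice as a model of cancer-associated cachexia, the wasting that accompanies tumors. The 3 mice of the CONT group received PBS alone. Each library was made from the mRNA of 1 mouse, and the replicate numbers name the mice.

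Beta-oxidation works in a fixed order. A fatty acid is joined to coenzyme A, passed to carnitine and back to enter the mitochondrion, and then cut repeatedly by dehydrogenation, hydration, a second dehydrogenation and thiolysis, with the electrons handed to the respiratory chain through electron transfer flavoprotein. White adipocytes are known for storing and releasing fatty acids rather than for burning them, while liver makes ketone bodies from the acetyl-CoA that results.

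The libraries held 15713794 to 25926425 counts, and levels are given as CPM, read counts scaled to library size with edgeR's TMM factors, or as FPKM, which also divides by gene length. CONT1 stood apart from the rest, with 30.2% of its counts on mitochondrial-genome genes against 3.89 to 5.04% in the other 5 libraries. Among well-expressed genes (average log2 CPM over 5), the 350 of at most 1500 bases had a median log2 deviation of 1.03 in CONT1 from the level in CONT2 and CONT3, and the 2836 over 5000 bases one of -0.30. The edgeR fit was therefore also run without CONT1. CONT3 carried 10700 CPM of 8 epididymis markers, against at most 229 CPM in any other library.

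The Hadha and Hadhb genes, which encode the subunits of the trifunctional protein, lie head to head on chromosome 5 and are shown because the same gap precedes both. In the table's coordinates (GRCm38), Hadha ends at 30155162 on the minus strand and Hadhb begins at 30155248 on the plus strand. The 85 bases between them, chr5:30155163-30155247, read on the plus strand from RefSeq's GRCm38.p6 promoter window, are 69.4% G or C.
Hadha-Hadhb: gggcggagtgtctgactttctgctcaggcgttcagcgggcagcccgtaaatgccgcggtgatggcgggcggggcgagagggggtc

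RefSeq promoter windows, from 250 bases before a gene's start to 50 bases after it, were found for 26 of the 31 genes. They were searched on both strands for a direct repeat of AGGTCA spaced by 1 base (DR1, the element that PPAR and RXR are known to bind), with at most 2 mismatches in its fixed letters. A match lay in 3 of 28 member windows (10.7%), against 3.86% of all 32851 windows. The ERR element TCAAGGTCA, without mismatch, lay in 0 of the 28 and in 0.423% of all windows, and matches of both motifs overlapped in 3 of all windows and in none of these genes. The matching stretches are shown 5′ to 3′ on each gene's own strand with the DR1 in capitals; Etfa's match is on the other strand. They lie at chr7:140116478-140116528 (Echs1, minus strand), chr9:55512294-55512344 (Etfa, minus strand) and chr9:108662134-108662162 (Slc25a20, plus strand).
Echs1: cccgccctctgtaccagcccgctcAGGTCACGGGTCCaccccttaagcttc
Etfa: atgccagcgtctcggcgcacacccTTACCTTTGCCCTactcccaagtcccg
Slc25a20: ctgaatgtAGGTGAAAGGTCGgcggagcc

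These are matches of letters in a window and say nothing of binding in these mice. The values of the 3 genes are given with their pathway steps below.

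Across the pathway, 23 of the 30 genes tested were higher in CAC and 7 were lower. The median of their log2 fold changes was 0.62, where that of all 17296 genes tested was -0.06. By edgeR's quasi-likelihood test with Benjamini-Hochberg adjustment over all genes, 0 of the 30 had an adjusted p under 0.05, as was so for 0% of all genes. At an unadjusted p under 0.05, 12 of the 30 were higher in CAC, against 6.31% of all genes tested, and 0 were lower, against 6.95%. In 17 of the 30, all CAC libraries were above all CONT libraries, against 11.8% of all genes, and in 0 all were below, against 10.7%. DESeq2, the tool used in the study, gave 6 of them an adjusted p under 0.05, all higher in CAC: Slc25a20, Crat, Acadvl, Acadl, Etfdh and Eci1. Over all 18444 genes with a DESeq2 adjusted p, 2.86% were called higher and 2.11% lower. With 3 mice a group, an exact two-sided permutation test of any single gene cannot give a p below 0.1. The median without CONT1 was 0.59.

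**Figure D1:**
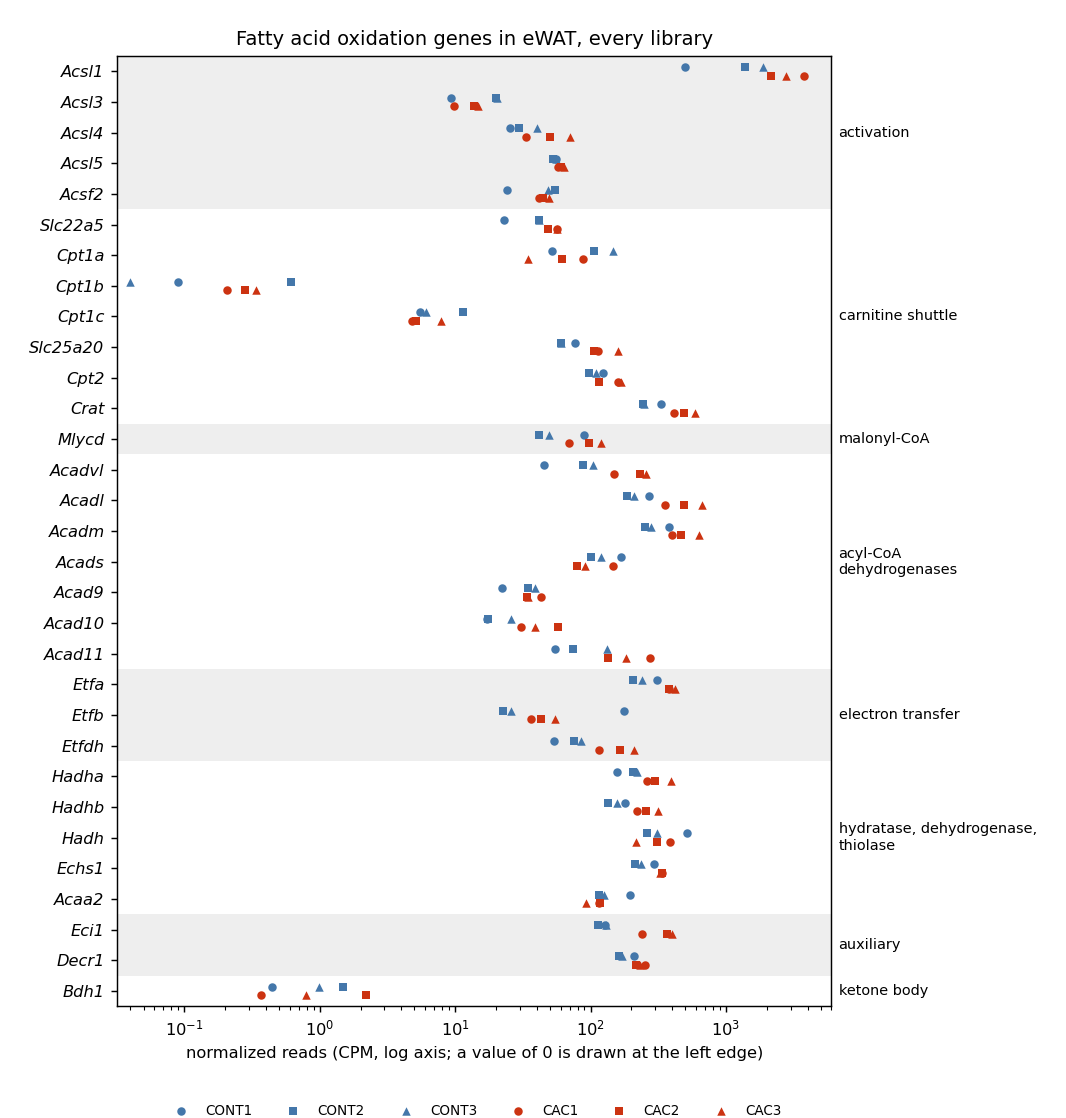
Normalized reads (CPM, log axis) of each of the 31 genes in every library, by pathway step, with CONT in blue, CAC in red and a marker shape for each replicate. In 17 of the genes all 3 red points lie to the right of all 3 blue points; in Cpt1a, Hadh, Acads and Acaa2 the colors overlap, and the isolated blue circle of Etfb is CONT1.

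Activation was led by Acsl1, the main long-chain acyl-CoA synthetase of adipocytes. It stood at 494, 1378 and 1876 CPM in CONT1 to CONT3 and at 3792, 2136 and 2789 CPM in CAC1 to CAC3. All 3 CAC libraries were above all 3 CONT libraries, and the lowest value was that of CONT1. On the log2 scale CAC was higher by 1.22 (standard error 0.54, unadjusted p = 0.0603), and by 0.85 without CONT1. Acsl3, a synthetase of lipid droplets and the endoplasmic reticulum, went the other way, with 9.36, 19.9 and 20.5 CPM in CONT and 9.73, 13.8 and 14.65 CPM in CAC. CONT1, the lowest of all 6, was the only CONT library below the CAC values. Its log2 fold change of -0.38 (standard error 0.36, unadjusted p = 0.326) became -0.65 without CONT1 (unadjusted p = 0.0364). Acsl4, which prefers arachidonic acid, was higher by 0.69 (standard error 0.32) on the log2 scale, with overlapping groups. Acsl5 was narrowly higher in every CAC library, from 52.6 to 55.2 CPM in CONT and from 57.8 to 63.1 CPM in CAC. Acsf2, a synthetase of another family, differed by 0.09 (standard error 0.31) on the log2 scale, and by -0.18 without CONT1.

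Per length, Acsl1 made up most of the Acsl pool. It took 72.1, 86.3 and 88.4% of the summed FPKM of Acsl1, Acsl3, Acsl4 and Acsl5 in CONT and 94.7, 89.1 and 90.1% in CAC, or 82.3% ± 8.87 against 91.3% ± 2.98 (SD, n = 3 each). The CAC shares were all above the CONT shares, narrowly so for CAC2 and CONT3. The Acsl3 share of FPKM was 2.87% ± 0.495 in CONT and 1.03% ± 0.408 in CAC (SD, n = 3 each), also without overlap. These shares separate the groups as fully as 3 against 3 can, where the smallest exact permutation p is 0.1. They are parts of the same sum, so a higher Acsl1 share lowers the others, and the shares are not separate results. The CPM of Acsl3 itself overlapped between the groups.

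**Figure D2:**
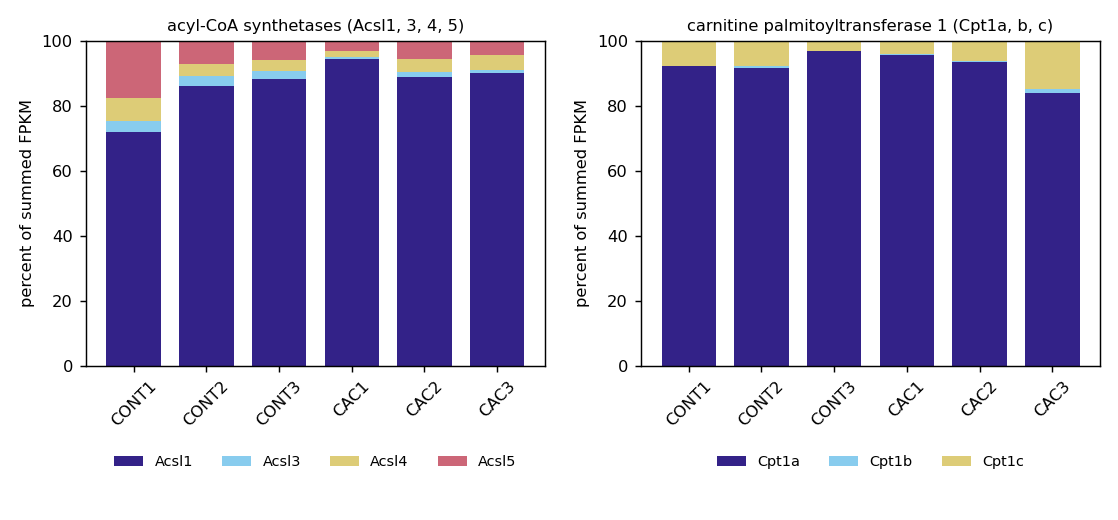
Share of the summed FPKM held by each Acsl gene (left) and each Cpt1 gene (right) in every library, as percent in stacked bars. Acsl1 runs from 72.1% in CONT1 to 94.7% in CAC1, while Cpt1a holds 84.2 to 96.9% of the Cpt1 sum with CONT and CAC overlapping.

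Along the carnitine shuttle, the inner-membrane translocase was higher in every CAC library, while the groups overlapped at the outer-membrane step. Cpt1a, the outer-membrane carnitine palmitoyltransferase that is known as the rate-controlling, malonyl-CoA-sensitive entry step, stood at 52.1, 106 and 145 CPM in CONT and at 88.3, 61.6 and 34.6 CPM in CAC. The groups overlapped only through CONT1. This gave a log2 fold change of -0.72 (standard error 0.47, unadjusted p = 0.172), and -1.02 without CONT1. Slc25a20, the carnitine-acylcarnitine translocase of the inner membrane and 1 of the 3 genes with a DR1 match, stood at 76.5, 60.3 and 60.5 CPM in CONT and at 113, 105 and 159 CPM in CAC. No CAC library reached down to the CONT values. The gene lies at chr9:108662088-108684641 on the plus strand. Its log2 fold change was 0.93 (standard error 0.23), with an adjusted p of 0.242 by edgeR and 0.0158 by DESeq2.

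Crat, carnitine acetyltransferase, which moves short acyl groups to carnitine, was at 331, 245 and 247 CPM in CONT and at 410, 491 and 588 CPM in CAC, again without overlap. The log2 fold change of Crat was 0.85 (standard error 0.26), with an adjusted p of 0.283 by edgeR and 0.0257 by DESeq2. Cpt2, which returns the acyl group to coenzyme A on the matrix side, ran from 96.8 to 123 CPM in CONT and from 115 to 168 CPM in CAC, with a log2 fold change of 0.43 (standard error 0.22). Slc22a5, the plasma-membrane carnitine transporter, was at 22.7, 41.6 and 41.3 CPM in CONT and at 56.1, 48.7 and 56.1 CPM in CAC. Its libraries did not overlap, and its log2 fold change of 0.60 (standard error 0.26) was 0.39 without CONT1.

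The other Cpt1 genes were scarce. Cpt1b, the form of muscle and brown fat, had 1, 14 and 0 reads in CONT and 5, 7 and 9 reads in CAC, where a count of 0 allows up to 3 reads. Cpt1c, the form of neurons, was at 4.80 to 11.3 CPM over the 6 libraries, with a log2 fold change of -0.37 (standard error 0.42). Cpt1a thus made up 93.7% ± 2.82 of the summed Cpt1 FPKM in CONT and 91.1% ± 6.1 in CAC (SD, n = 3 each), and the groups overlapped. Mlycd, which removes the Cpt1 inhibitor malonyl-CoA, was at 88.7, 41.7 and 49.4 CPM in CONT and at 69.4, 96.7 and 119 CPM in CAC. Here CONT1 was the highest CONT library, and the log2 fold change of 0.66 (standard error 0.35) was 1.07 without it (unadjusted p = 0.0106).

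The acyl-CoA dehydrogenases, which open each round of the spiral, are told apart by the chain length they accept. The very long, long and medium chain enzymes were higher in every CAC library, and the short chain enzyme was not. Acadvl, for very long chains, was at 44.9, 88.3 and 104 CPM in CONT and at 150, 230 and 254 CPM in CAC. Acadl, for long chains, was at 268, 185 and 211 CPM in CONT and at 354, 488 and 665 CPM in CAC. Acadm, for medium chains, was at 379, 254 and 279 CPM in CONT and at 396, 466 and 631 CPM in CAC. In all 3 genes the groups did not overlap, although in Acadm the lowest CAC value was close to that of CONT1. Acads, for short chains, was at 166, 101 and 119 CPM in CONT and at 147, 79.4 and 91.5 CPM in CAC, and its groups overlapped.

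In the same order, the log2 fold changes were 1.41 (standard error 0.37) for Acadvl, 1.19 (0.31) for Acadl, 0.71 (0.29) for Acadm and -0.28 (0.31) for Acads. The adjusted p of Acadvl was 0.264 by edgeR and 0.0108 by DESeq2, and that of Acadl was 0.261 by edgeR and 0.0115 by DESeq2. Acadm had an unadjusted p of 0.0435 and Acads one of 0.401. Without CONT1 the 4 log2 fold changes were 1.14, 1.36, 0.92 and -0.04. Within each library, the ratio of Acadl reads to Acads reads was 1.61, 1.83 and 1.77 in CONT and 2.41, 6.14 and 7.27 in CAC, or 1.74 ± 0.115 against 5.27 ± 2.55 (SD, n = 3 each). This ratio and that of Acadl to Hadh below were chosen after the values of the genes were seen. Acadvl (chr11:70010183-70015411, minus strand; GRCm38) overlaps Dvl2 on the opposite strand over 2119 bases, and Dvl2 held 13.9% as many reads as Acadvl.

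**Figure D3:**
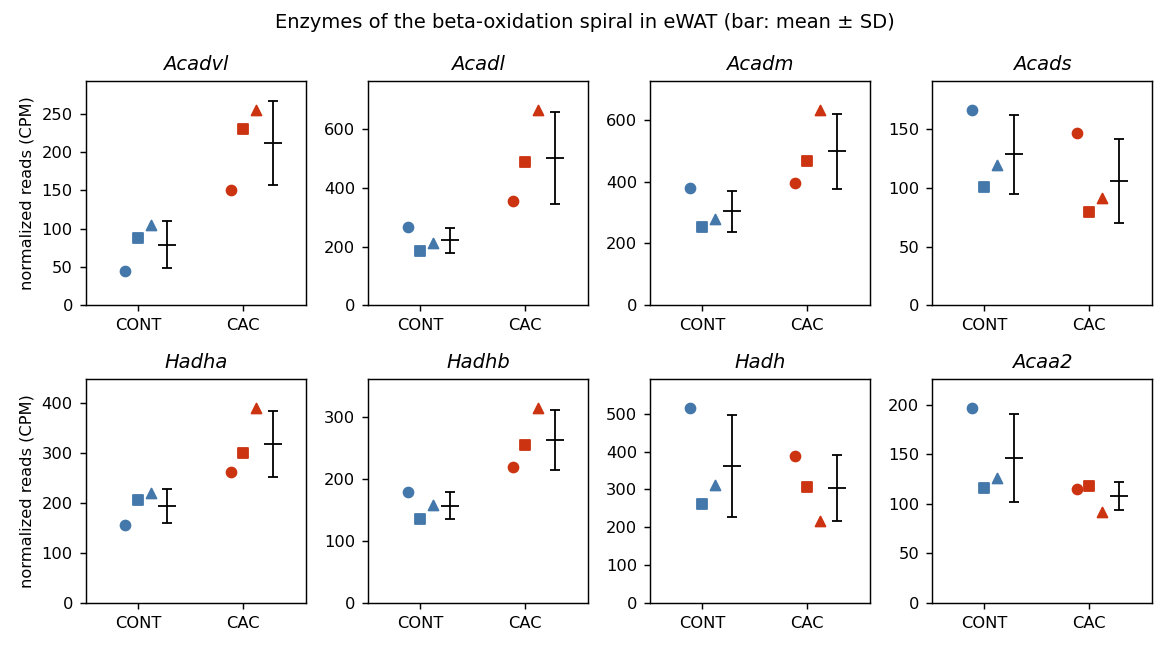
Normalized reads (CPM) of 8 enzymes of the beta-oxidation spiral, 1 panel a gene with its own axis from 0, with a point for each library and a bar for mean ± SD of 3 libraries. CAC lies above CONT without overlap in Acadvl, Acadl, Acadm, Hadha and Hadhb, and the groups overlap in Acads, Hadh and Acaa2.

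The remaining dehydrogenases of the family had lower FPKM levels. Acad11 and Acad10, less studied members, were both above CONT in every CAC library. Acad11 ran from 54.4 to 131 CPM in CONT and from 135 to 273 CPM in CAC, a log2 fold change of 1.18 (standard error 0.41, unadjusted p = 0.0255). Acad10 ran from 17.0 to 25.9 CPM in CONT and from 30.4 to 57.9 CPM in CAC, a log2 fold change of 1.07 (standard error 0.31, unadjusted p = 0.0111). Acad9, better known as an assembly factor of respiratory complex I, was at 22.2 to 39.0 CPM in CONT and 34.1 to 43.0 CPM in CAC, a log2 fold change of 0.22 (standard error 0.25), or 0.03 without CONT1.

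Electrons from these dehydrogenases pass to electron transfer flavoprotein, made of the Etfa and Etfb subunits, and then to ubiquinone through Etfdh. Etfdh was at 53.3, 75.4 and 84.4 CPM in CONT and at 114, 166 and 208 CPM in CAC, without overlap. Its log2 fold change was 1.20 (standard error 0.29), with an adjusted p of 0.242 by edgeR and 0.00776 by DESeq2. Etfa, the second gene with a DR1 match, was at 311, 206 and 240 CPM in CONT and at 380, 381 and 417 CPM in CAC, also without overlap, and its log2 fold change was 0.64 (standard error 0.24, unadjusted p = 0.0327).

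Etfb could not be read from the 6 libraries together. It was at 176 CPM in CONT1 but at 22.7 and 25.6 CPM in CONT2 and CONT3, and at 36.2, 42.7 and 54.2 CPM in CAC. The fitted log2 fold change was -0.75 (standard error 0.80) with CONT1 and 0.89 (standard error 0.21, unadjusted p = 0.00937) without it. The ratio of Etfa to Etfb reads was 1.77 in CONT1 and from 7.69 to 10.5 in the other 5 libraries. Etfb is among the shorter genes, at 1164 bases, the length class in which CONT1 stood apart. The part of gene length in this value was not tested.

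In the later steps of the spiral, both genes of the trifunctional protein were higher in every CAC library, as was 1 of the 3 genes of soluble enzymes. Hadha, its hydratase and long-chain hydroxyacyl dehydrogenase subunit, was at 156, 206 and 219 CPM in CONT and at 261, 300 and 390 CPM in CAC. Hadhb, its thiolase subunit, was at 179, 135 and 158 CPM in CONT and at 219, 256 and 315 CPM in CAC. Neither gene's groups overlapped. The log2 fold changes were 0.71 (standard error 0.25, unadjusted p = 0.0281) for Hadha and 0.74 (standard error 0.23, unadjusted p = 0.0158) for Hadhb, and 0.59 and 0.86 without CONT1. The ratio of Hadha to Hadhb reads was 0.872, 1.53 and 1.39 in CONT and 1.19, 1.18 and 1.24 in CAC, or 1.26 ± 0.345 against 1.20 ± 0.0324 (SD, n = 3 each). CONT1 was below every CAC library, and CONT2 and CONT3 were above them.

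Among the soluble enzymes, Echs1, the short-chain enoyl-CoA hydratase and the last gene with a DR1 match, was at 291, 211 and 234 CPM in CONT and at 334, 339 and 323 CPM in CAC. The libraries did not overlap, and CAC was higher by 0.44 on the log2 scale (standard error 0.22, unadjusted p = 0.0845). Hadh, the dehydrogenase for medium and short hydroxyacyl chains, was at 515, 262 and 310 CPM in CONT and at 388, 307 and 216 CPM in CAC, a log2 fold change of -0.25 (standard error 0.36), or 0.10 without CONT1. Acaa2, the soluble thiolase, was at 197, 116 and 126 CPM in CONT and at 115, 118 and 91.7 CPM in CAC, a log2 fold change of -0.44 (standard error 0.26, unadjusted p = 0.142), or -0.15 without CONT1. In both genes the groups overlapped and CONT1 was the highest library. The ratio of Acadl to Hadh reads was 0.634 ± 0.1 in CONT and 1.86 ± 1.11 in CAC (SD, n = 3 each), from 0.911 upward in CAC and up to 0.705 in CONT. As with the ratio of Acadl to Acads, the groups did not overlap and the smallest exact permutation p is 0.1.

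Eci1, the isomerase that lets the double bond of unsaturated fatty acids enter the spiral, lies at chr17:24426683-24439316 on the plus strand and had, with Acadvl, one of the 2 highest log2 fold changes of the 30 genes, which differed by less than their standard errors. It stood at 128, 112 and 130 CPM in CONT and at 238, 368 and 398 CPM in CAC, or 123 ± 9.51 against 334 ± 85.2 CPM (SD, n = 3 each). All CAC values exceeded the CONT values, by 1.44 on the log2 scale (standard error 0.26), and by 1.31 to 1.68 with any 1 library left out. Its adjusted p was 0.215 by edgeR and 3.22e-05 by DESeq2. Decr1, the dienoyl-CoA reductase that works beside it on polyunsaturated chains, was at 207, 162 and 172 CPM in CONT and at 250, 215 and 232 CPM in CAC, a log2 fold change of 0.37 (standard error 0.20) without overlap.

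Bdh1, the mitochondrial enzyme that interconverts acetoacetate and beta-hydroxybutyrate, was barely present. Its level was 0.446, 1.49 and 0.995 CPM in CONT and 0.370, 2.18 and 0.793 CPM in CAC, or at most 0.455 FPKM in any library. A log2 fold change of 0.17 (standard error 0.78) changed sign when CONT1 or CAC2 was left out.

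**Figure D4:**
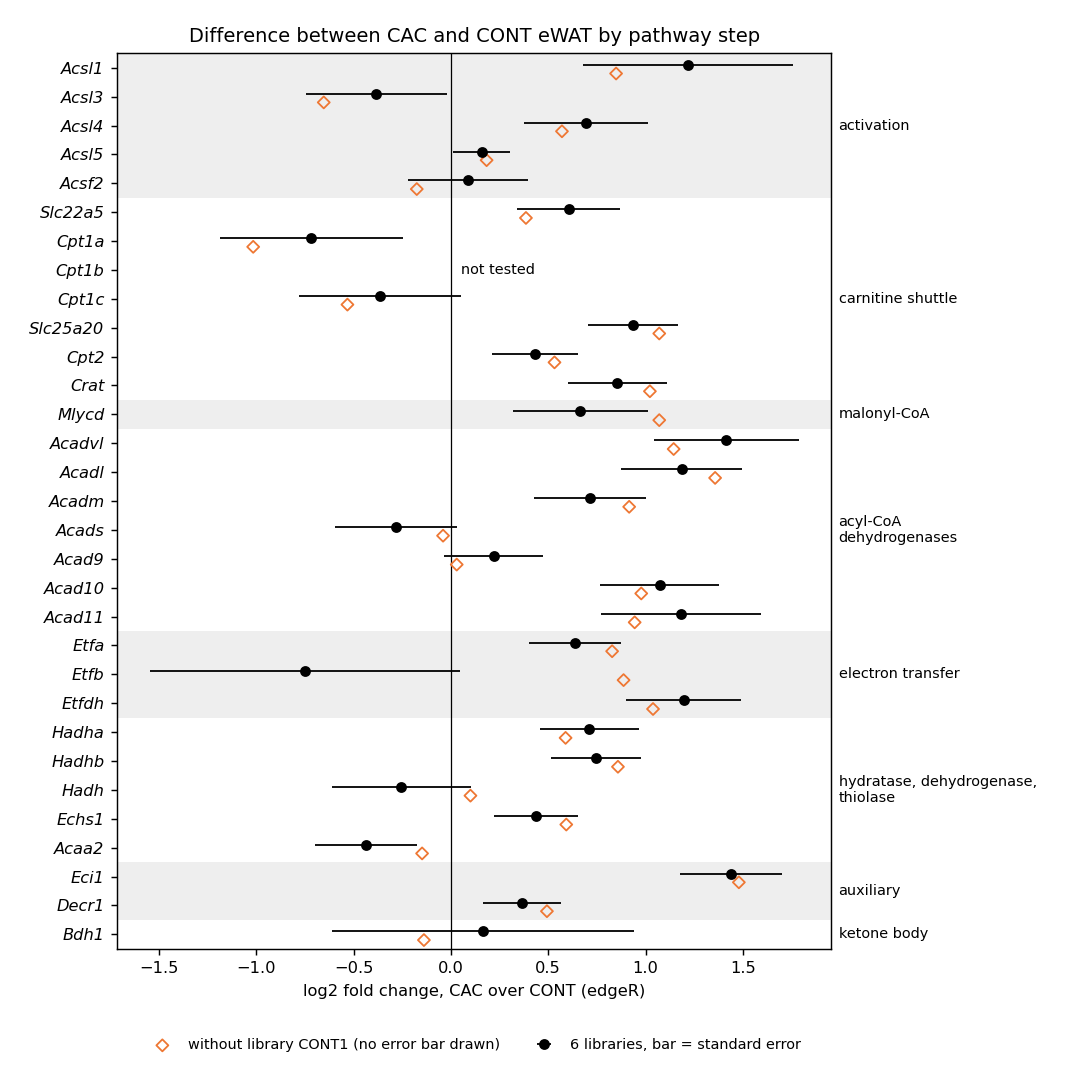
Log2 fold change of CAC over CONT for the 30 genes tested, by pathway step, as black points with standard errors, and the value without CONT1 as open diamonds. Eci1, at 1.44, and Acadvl, at 1.41, lie farthest to the right; the diamond of Etfb lies at 0.89, on the other side of 0 from its point at -0.75.

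Ordered by FPKM, the most abundant of the genes in CONT were Etfa at 111 ± 24.6, Acsl1 at 95.6 ± 53.3, Eci1 at 90.9 ± 7.57 and Acadl at 88.7 ± 17.8 FPKM (SD, n = 3 each). These 4 means lie within 1 SD of that of Acsl1 and cannot be ranked. Other genes, such as Acaa2 at 77.7 and Acadm at 62.5 FPKM, lie within it too, so the 4 are not set apart in CONT. In CAC the same genes led, with Eci1 at 250 ± 62.3, Acsl1 at 227 ± 66.9, Acadl at 204 ± 62.7 and Etfa at 175 ± 8.96 FPKM, again with overlapping ranges. Acaa2 and Hadh, which were near Acadm in CONT at 77.7 ± 24.1 and 58.7 ± 22.3 against 62.5 ± 14.2 FPKM, were at 58.2 ± 7.74 and 49.9 ± 14.5 against 104 ± 24.8 FPKM in CAC. The FPKM of the 31 genes summed to 842 to 1132 in CONT and 1527 to 1799 in CAC.

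The CAC libraries were not equal. CAC3 held the highest CAC value in 18 of the 30 genes and CAC1 the lowest in 18. CAC1 was nevertheless the highest in 8, among them Acsl1, Acad11, Cpt1a, Acads and Hadh. The median log2 fold change of the 30 genes was 0.47 without CAC3 and 0.68 without CAC1.

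Among 20 further enzymes on the borders of the pathway, of which 19 were in the table and all 19 of those were tested, 14 were higher in CAC and the median difference was 0.41 on the log2 scale. In 7 the unadjusted p was under 0.05 with higher levels in CAC (6.31% of all genes tested), and in 0 with lower levels (6.95% of all genes tested). Acacb, the acetyl-CoA carboxylase of the mitochondrial surface whose product malonyl-CoA inhibits Cpt1, was at 123, 187 and 279 CPM in CONT and at 919, 1339 and 1088 CPM in CAC, a log2 fold change of 2.50 (standard error 0.38). Acacb had an adjusted p of 0.179 by edgeR and 2.8e-09 by DESeq2. Every CAC library lay above CONT in Acacb, while the groups overlapped in Mlycd, the enzyme that breaks malonyl-CoA down, and in Cpt1a. Both overlaps came from CONT1: without it, the CAC libraries were all higher in Mlycd and all lower in Cpt1a.

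Hsd17b10, Acsm3, Acsm5 and Eci2 were also among the neighbors with an unadjusted p under 0.05. Hsd17b10, a short-chain and branched-chain hydroxyacyl dehydrogenase, was at 84.2 to 116 CPM in CONT and 200 to 762 CPM in CAC, a log2 fold change of 2.35 (standard error 0.50, unadjusted p = 0.00254). Acsm3, a medium-chain acyl-CoA synthetase, was at 13.02 to 22.1 CPM in CONT and 48.6 to 326 CPM in CAC, a log2 fold change of 3.77 (standard error 0.73, unadjusted p = 0.00163). Acsm5, of the same family, had a log2 fold change of 1.53 (unadjusted p = 0.0277) with overlapping groups, and Eci2, an isomerase shared with peroxisomes, had one of 0.44 (unadjusted p = 0.0451) without overlap.

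Of 16 regulators and known PPAR targets, 14 were tested and 12 were higher in CAC. Their median was 0.52 on the log2 scale, and 2 higher genes and 1 lower gene had an unadjusted p under 0.05, against 6.31% and 6.95% of all genes tested. Pdk4, a mitochondrial kinase that inactivates pyruvate dehydrogenase and so limits the conversion of pyruvate to acetyl-CoA, was at 24.4, 18.7 and 21.1 CPM in CONT and at 144, 198 and 99.3 CPM in CAC. The log2 fold change of Pdk4 was 2.78 (standard error 0.30), with an adjusted p of 0.127 by edgeR and 3.34e-13 by DESeq2. Ucp3, a mitochondrial carrier, had a log2 fold change of 0.78 (unadjusted p = 0.0331) and Esrrg, an estrogen-related receptor, one of -2.22 (unadjusted p = 0.041) at no more than 5.65 CPM in any library.

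Compared by counts and medians alone, the mitochondrial genes stood beside other oxidative lists as follows. In 19 genes of peroxisomal beta-oxidation, 12 were higher in CAC, 3 had an unadjusted p under 0.05 and 6 were above CONT in every CAC library, and the median log2 fold change was 0.29. In 17 genes of the tricarboxylic acid cycle these counts were 16, 9 and 12, with a median of 0.52, and in 20 nuclear genes of the respiratory chain they were 15, 7 and 10, with a median of 0.38. The respiratory chain median rested on CONT1, and was 0.58 without it, beside 0.59 for the 30 genes. The peroxisomal and tricarboxylic acid cycle medians were then 0.245 and 0.53. Over all genes tested, 6.31% were higher at that p and 11.8% were above CONT in every CAC library. The difference between these lists and the 31 genes was not tested.

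**Figure D5:**
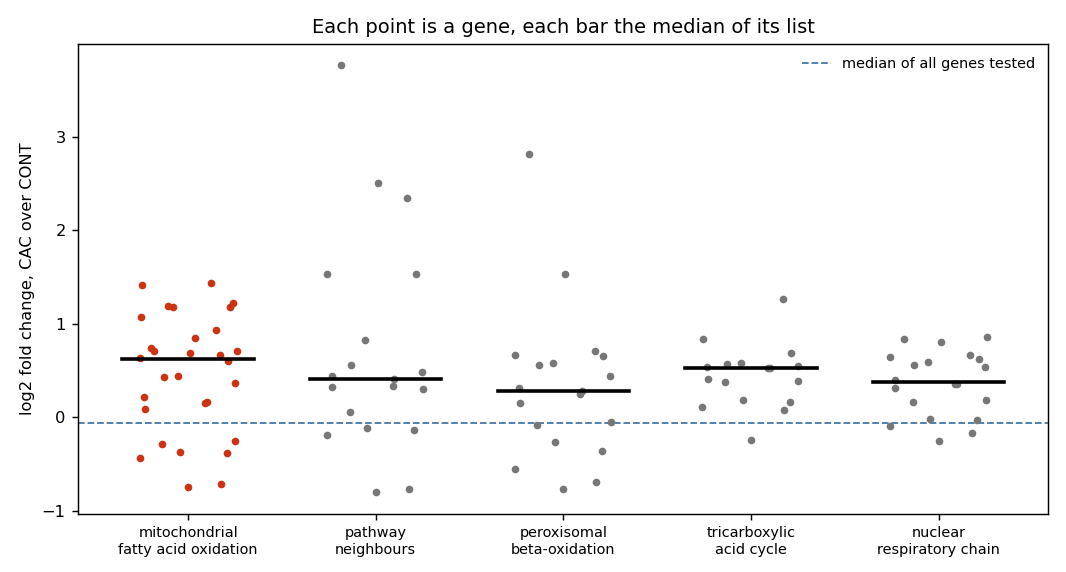
Log2 fold change of CAC over CONT for each tested gene of mitochondrial fatty acid oxidation (red) and of 4 other lists (grey), with the list median as a bar and the median of all genes tested, -0.06, as a dashed line. The medians are 0.62, 0.41, 0.29, 0.52 and 0.38 from left to right, and 0.59, 0.525, 0.245, 0.53 and 0.58 without CONT1 (not drawn). All 5 lists hold genes on both sides of 0.

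The marker sums of most cell types overlapped between the groups, while some single markers differed. Of 12 adipocyte markers, 5 were higher and 7 lower in CAC, and their sum was 25230 to 57360 CPM in CONT and 37180 to 51090 CPM in CAC; none was at 0, but Lep was at 3.996 and 0.415 CPM in CAC2 and CAC3 against 409 CPM or more in the other 4 libraries. Summed macrophage markers (3 of 12 higher in CAC) were at 875, 2338 and 2360 CPM in CONT and from 1043 to 1884 CPM in CAC, so that only CONT1 was not above every CAC library. Brown and beige adipocyte markers, in a cell type rich in these enzymes, summed to 43.5 to 55.3 CPM in CONT and to 37.0, 113 and 161 CPM in CAC1 to CAC3, with 5 of 7 tested markers higher, while Ucp1, which defines the type, was at 0.535 CPM or less in every library and at 0 in CONT2 and CONT3. Skeletal muscle markers summed to 13.7 to 56.6 CPM in CONT and 16.7 to 52.2 CPM in CAC, and 5 of 10 tested were higher. Hepatocyte markers, of another tissue rich in these genes, reached 175 CPM in CAC3 against 13.6 to 36.2 CPM in the other libraries, and the median log2 fold change of the 30 genes without CAC3 is given above. Of 8 B and plasma cell markers, 7 were lower in CAC (list median -1.36 on the log2 scale), and 5 were below CONT in every CAC library (10.7% of all genes). DESeq2 called 2 of them lower, Jchain at -2.45 and Mzb1 at -2.58 in edgeR's log2 fold change (DESeq2 adjusted p = 0.00597 and 0.00244). The sum of the 8 went the other way, from 177 to 315 CPM in CONT to 334 to 834 CPM in CAC, through Xbp1, which adipocytes also express and which was at 122 to 261 CPM in CONT and 316 to 824 CPM in CAC. Mesothelium markers summed to 212 to 268 CPM in CONT and 95.3 to 288 CPM in CAC (2 of 8 higher). Leaving out CONT1 moved the median log2 fold change from -0.24 to 0.04 for adipocyte, from -0.44 to -0.75 for macrophage, from 0.27 to 0.70 for the 10 tested skeletal muscle markers, from -0.50 to -0.09 for mesothelium and from 1.35 to 2.41 for the 4 tested hepatocyte markers. This median moved from 1.18 to 1.65 for the 7 tested brown and beige adipocyte markers, and from -1.36 to -1.06 for B and plasma cell. The part of these cell types in the results was not tested, and in bulk tissue fewer cells of a type and less RNA per cell cannot be told apart.

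Reads of overlapping genes limit a few values further. Of the 31 genes, 18 overlap another annotated gene, and in 7 that gene held at least 5% as many reads, on the opposite strand in 6 of them. Beside Dvl2 at Acadvl, these include Zdhhc6 at Acsl5 (55.5%), Utp14b on the same strand at Acsl3 (31.3%), Paox at Echs1 (13.8%) and Dolpp1 at Crat (7.69%). Whether counting used the strand is not given in the sources used here.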

How the data were processed

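Poly(A) RNA of eWAT was sequenced from 3 CONT and 3 CAC mice, grouped by the sample titles. Per the study's methods and the submitters' processing notes, the authors aligned reads with HISAT2 2.0.5 to the Ensembl mouse genome and counted them with featureCounts 1.5.0-p3. The authors deposited whole-number counts per gene, without normalization, and FPKM values, which divide the counts by gene length and a library total. Coordinates of the table equal those of GENCODE M21 (GRCm38) for 28 of the 31 genes and for 98.3% of all genes shared.

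Counts were tested in R 4.3.3 with edgeR 4.0.16 (quasi-likelihood test, robust, TMM, filterByExpr, group only, Benjamini-Hochberg adjustment over 17296 genes). The study's tool, DESeq2 (version 1.42.0 here), limma 3.58.1 (voom with sample weights, and log2 FPKM plus 1 or 0.1 where FPKM reached 0.5 in 3 or more libraries), other scalings and filters, the replicate number as a block and each library left out were alternatives. An offset for gene length was added after seeing the data. Figures were drawn with matplotlib 3.10.9. A level of 1 CPM stood for 11.2 to 26.5 reads. The common dispersion was 0.265, and no 2 libraries of a group were copies of each other (chi-square over degrees of freedom 49.7 to 412).

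All 31 genes are named. Of the neighbors and regulators, those with an unadjusted p under 0.05 are named, or the 3 with the smallest p where fewer. Some genes that this rule would name are not reported here. The genes, lists and tests were chosen with earlier results of these data known. Caging and batches are not given in the sources used here. The p-values of edgeR, DESeq2 and limma set the difference between groups against the spread among libraries within a group. Columns of gene description were not used as measurements.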

Additional observations from a re-analysis of the deposited data

How the results depend on the processing

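The number of the 30 genes with an adjusted p under 0.05 was 0 in edgeR and limma on FPKM under every scaling, filter and left-out library tried, 6 with DESeq2 (4.97% of the 18444 genes it gave an adjusted p) and 10 with limma voom and sample quality weights, which gave CONT1 a weight of 0.186 and called 5.51% of all genes. Voom also put 2 genes lower at an unadjusted p under 0.05, Acsl3 and Cpt1a, but 15.9% of all genes as well, against 0 and 6.95% in the edgeR test. With 1 library left out, the number higher at that p ran from 6 (without CONT2, with 4.0% of all genes) to 16 (without CONT1, with 7.3% of all genes). The number lower ran from 0 to 1, against 3.69% (without CAC2) to 8.28% (without CONT1) of all genes. The number below CONT in every library ran from 0 to 2 (both without CONT1). The share of all genes below CONT was not counted there, and groups separate more readily with fewer libraries. The median log2 fold change ran from 0.474 (without CAC3) to 0.679. Signs turned in 5 genes when a library was left out, with log2 fold changes of -0.18 to 0.31 for Acsf2, -1.18 to 0.89 for Etfb, -0.44 to 0.10 for Hadh, -0.74 to 0.66 for Bdh1 and -0.61 to 0.0395 for Cpt1c. Under voom the turned values were -0.16 for Acsf2, -0.0174 for Acad9, 0.78 for Etfb and 0.0225 for Hadh. The cause was not tested. Of the genes' values under all alternatives, 511 kept direction and side of the threshold, 16 passed it under DESeq2 or voom, and 10 turned. With the replicate block, 11 genes were higher at an unadjusted p under 0.05, against 5.23% of all genes. The median was then 0.654, and 1 gene of the whole table had an adjusted p under 0.05. In their deviations from the group mean, same-numbered libraries correlated at 0.31, -0.15 and -0.22. Differently numbered libraries ran from -0.44 (CONT2 with CAC1) to 0.47 (CONT2 with CAC3). With so few libraries a group, these values cannot show whether the numbers pair the mice. Of all genes at an unadjusted p under 0.05, CAC held the higher level in 47.6% in the edgeR test used above, and in 63.3% with the offset for gene length. Depth limits Cpt1b and Bdh1, at few reads a library.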
